A study of Rattus norvegicus with 32 samples.

Results

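The genes of amyloid precursor processing and tau were followed in the adult rat hippocampus after early-life iron deficiency and prenatal choline. Members were the rows of the deposited count tables whose gene symbol was on a list of 9 names, and 8 of the 9 had a row, out of 32883 rows in all. They were App, Aplp1, Aplp2, Psen2, Bace1, Adam10, Apoe and Mapt, each with 1 row. Sorl1, a sorting receptor for the amyloid precursor protein, was not analysed here.

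RNA was sequenced from the hippocampus of 32 Sprague-Dawley rats at 65 days of age, 4 rats in each of 8 groups. The groups were always iron sufficient (IS), iron sufficient with choline (ISch), formerly iron deficient (FID) and formerly iron deficient with choline (FIDch), in males and in females. Iron was restricted through the diet of the dam from gestation into the first week after birth, and choline was given through the dam's diet during part of gestation. Every rat had returned to an iron-sufficient diet by the time its tissue was taken, so the comparisons are of adults with different early-life diets. Males made up sequencing batch I and females batch II. Sex therefore cannot be told apart from batch, and values were normalized within a batch. The paper describes the male tissue of its own experiments as drawn from separate litters, and its RNA data as coming from an earlier study. The sample labels used here give no litter, so whether rats of a group were littermates is not known. The deposited column names of male ISch replicates 1 and 2 share a prefix beyond the group name, and that of male FIDch replicate 2 has the same form. The other male columns carry a plain number. What this form means is not stated.

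The amyloid precursor protein is a membrane protein of neurons that is cut along alternative routes. BACE1 makes the first cut on the route to amyloid-beta and gamma-secretase, whose catalytic subunit is a presenilin, makes the last, whereas ADAM10 is the main alpha-secretase and cuts within the amyloid-beta stretch. Apolipoprotein E, made in the brain mostly by astrocytes, carries lipid between cells and binds amyloid-beta, and tau, the product of Mapt, is a microtubule-associated protein of axons. The question asked of each comparison was whether the transcript level of these genes in the adult hippocampus differed with the early-life diet.

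Library totals were 3515806 to 9517503 counts in the male batch and 18439999 to 26616318 in the female batch, and male FIDch replicate 2 was the shallowest. The least abundant member, Psen2, had 81 counts in that library and 110 to 214 in the other male libraries, against 358 to 580 in the females. Levels are given as CPM, the counts divided by a TMM-scaled library size and brought to a common scale. Neuronal, astrocyte and oligodendrocyte markers were abundant in every group, and the hippocampal markers Neurod6, Prox1 and Wfs1 were present in every library, while Fibcd1 was at or near 0 (at most 6.11 CPM). A list of 5 choroid plexus markers summed to 377 CPM in male FID replicate 4 and to between 2.28 and 17.2 in the other 31 libraries, with Otx2 at 0 throughout. The SD of the log2 deviation from the other 3 libraries of the group, over all genes tested, was largest in male FIDch replicate 2 (0.352), male IS replicate 1 (0.345) and female FIDch replicate 4 (0.334), against 0.228 to 0.311 in the rest. Named pairwise values that lose or gain a call without one of these libraries are given with and without it. In bulk tissue, fewer cells of a type and less RNA per cell cannot be told apart.

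In these data no member differed between diet groups after correction for all genes tested. With edgeR's quasi-likelihood test, 0 of the 8 members had a Benjamini-Hochberg adjusted p under 0.05 in the 8 pairwise comparisons, the 2 iron by choline interactions or the 3 tests of female against male effects. Of the 32 pairwise male values, 4 had an unadjusted p under 0.05, and of the 32 female values 6 did. With DESeq2, and with every other alternative run, the count of members with an adjusted p under 0.05 was also 0. The study's own criterion was an absolute log2 fold change over 0.2 with an unadjusted p under 0.05. By it 2 pairwise values were called: Apoe was lower in male FID than in male IS, and Bace1 was lower in female FIDch than in female FID. Fitted log2 fold changes ran from -0.22 to 0.15 in the males and from -0.22 to 0.11 in the females, and they were under 0.1 in size in 20 of the 32 male and 25 of the 32 female values.

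**Figure D1:**
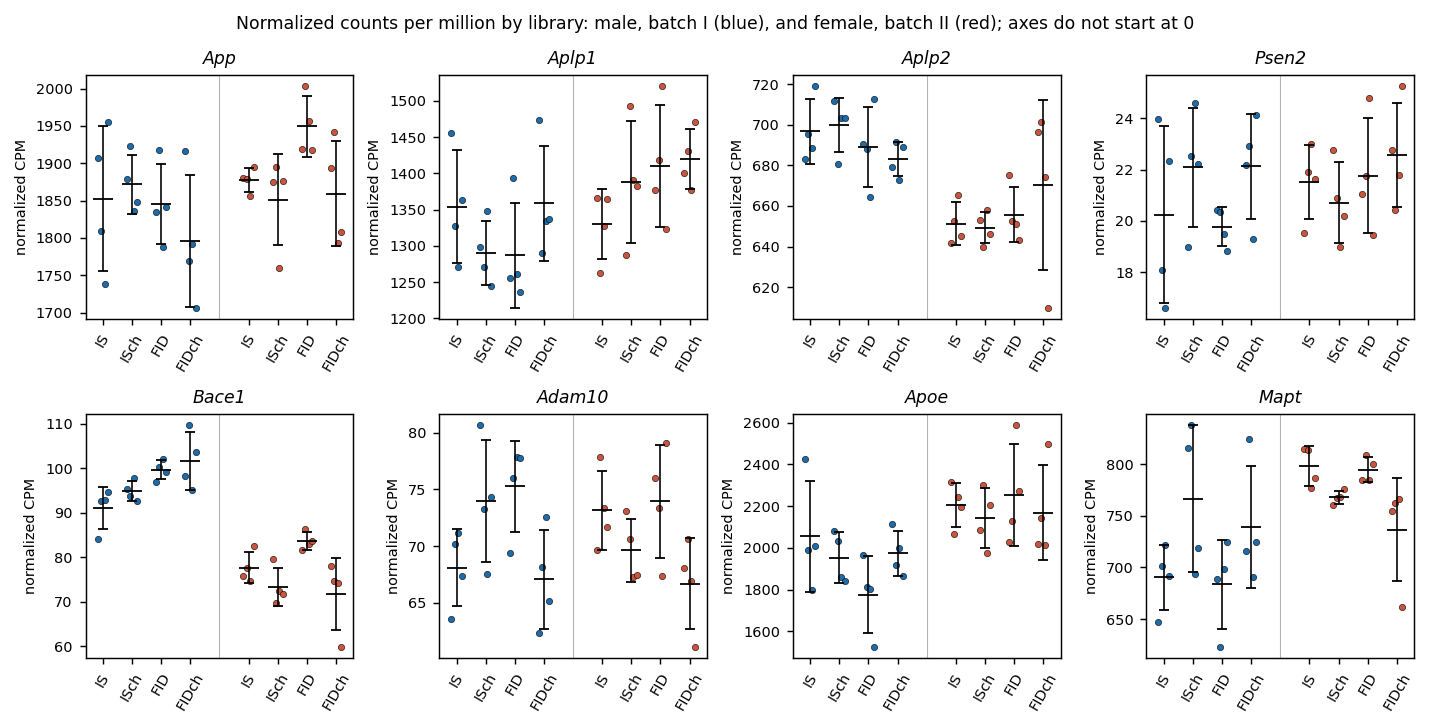
Normalized CPM (vertical axes, not starting at 0) of the 8 members in each library, with 4 rats per group along the horizontal axis, males (batch I) in blue and females (batch II) in red; each point is a library, and the dash and bars give the mean ± SD. Most groups of a gene overlap within a batch; Bace1 in female FID (81.6 to 86.2) lies above female FIDch (59.9 to 78.0).

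The count of members is read against the share of all tested genes that was called. In the males the criterion was met by 8.06% of genes for ISch against IS, 4.62% for FID against IS, 6.12% for FIDch against IS and 13% for FIDch against FID, and by 0, 1, 0 and 0 of the 8 members. In the females the shares were 10.3%, 6.47%, 8.98% and 12.7% in the same order, and 0, 0, 0 and 1 members met it. An unadjusted p under 0.05 alone was found for 10.5%, 5.68%, 7.89% and 17.8% of genes in the males, where 1 member passed in each comparison. It was found for 16.3%, 11.2%, 12.9% and 18% in the females, where 0, 1, 2 and 3 members passed. These counts of members are near the background. The share of all genes whose groups did not overlap was not counted. Separations without overlap are therefore given as descriptions of single genes only. Adjusted p-values under 0.05 were found for 0.208%, 0%, 0.131% and 1.28% of genes in the males and for 2.54%, 0.191%, 0.907% and 2.28% in the females. The 0% for male FID against IS is 0 genes by edgeR's quasi-likelihood test, with 787 genes at an unadjusted p under 0.05, and DESeq2 called 2.

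Of the 8 members, App and Aplp2 varied least between libraries in both batches. App was measured at 1852.7 ± 97.0 CPM in male IS (SD, n = 4), 1871.7 ± 39.0 in ISch, 1845.4 ± 53.8 in FID and 1795.9 ± 87.8 among FIDch rats. In the females App was at 1877.8 ± 16.0 in IS, 1851.5 ± 61.6 in ISch, 1949.3 ± 40.5 in FID and 1859.3 ± 70.7 among FIDch rats. Its order was ISch, IS, FID and FIDch from high to low in the males and FID, IS, FIDch and ISch in the females, and no pair of groups differed by the criterion. The female FID libraries, at 1918 to 2004, lay above the female IS libraries, at 1856 to 1895, without overlap. That difference was a log2 fold change of 0.05 (95% interval -0.01 to 0.12), with an adjusted p of 0.544.

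The spread of App over libraries was small for a gene of its level. The SD of its log2 values over the 16 libraries was 0.0564 in the males and 0.0470 in the females, against medians of 0.0863 and 0.0747 over genes within 0.5 log2 units of its level. Aplp2, a paralogue with the same membrane topology, was steadier in the males, with an SD of 0.0311 against a median of 0.0903. The Aplp2 libraries ran from 665 to 719 CPM in the males and from 610 to 701 in the females, and its pairwise log2 fold changes all lay between -0.03 and 0.04.

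Aplp1, the paralogue expressed mainly in neurons, had no called difference. Its male means were 1354 ± 77.9 for IS, 1290.5 ± 44.0 for ISch, 1287 ± 72.0 for FID and 1358.9 ± 79.4 for FIDch. Its female means were 1330.1 ± 48.7, 1388.3 ± 83.9, 1410.2 ± 83.5 and 1420 ± 40.9 in the same order. In female FIDch the 4 libraries (1400, 1431, 1377 and 1471) lay above the 4 of female IS (1367, 1262, 1327 and 1364), at a log2 fold change of 0.09 (SE 0.042, adjusted p = 0.381). Aplp1 overlaps Nfkbid in the RefSeq annotation of the rat, and the counts are not stated to use strand. Whether the 2 genes share reads in these counts was not checked.

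**Figure D2:**
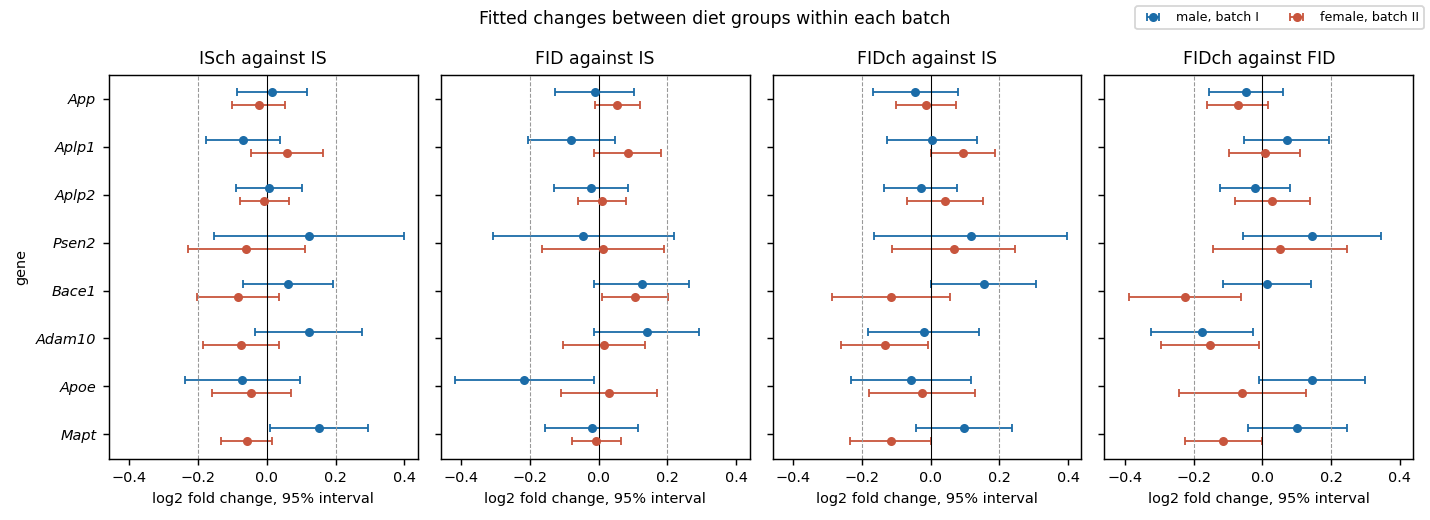
Fitted log2 fold changes (horizontal axis) with 95% intervals for the 8 members (vertical axis) in the 4 pairwise comparisons of each batch, males in blue and females in red; dashed lines mark the criterion of 0.2 in either direction. The values lie between -0.22 and 0.15, and 2 of them, Apoe in male FID against IS and Bace1 in female FIDch against FID, pass -0.2.

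Mean Bace1, the beta-secretase, in FIDch lay above that of IS in the males and below it in the females. In the males Bace1 was at 84.1, 92.7, 92.9 and 94.6 CPM in IS and at 97.0, 100.3, 102.1 and 99.1 in FID. The male ISch libraries were at 92.7 to 97.9 and the FIDch libraries at 95 to 109.7. The male FID and FIDch libraries thus all lay above those of IS. The fitted log2 fold change was 0.12 for FID against IS (SE 0.063, adjusted p = 0.786) and 0.15 for FIDch against IS (SE 0.070, adjusted p = 0.626 by edgeR). The latter was 0.12 without FIDch replicate 2 and 0.11 without IS replicate 1.

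In the females Bace1 was at 81.6, 86.2, 82.9 and 83.6 in FID and at 78.0, 74.7, 74.1 and 59.9 in FIDch. All 4 FID libraries were higher than all 4 FIDch libraries. The fitted log2 fold change was -0.22 (SE 0.074, 95% interval -0.39 to -0.06), with an unadjusted p of 0.0117 and an adjusted p of 0.146 by edgeR. The exact permutation test over the libraries gave a 2-sided p of 0.029, the smallest that 4 against 4 allows. Without female FIDch replicate 4 the change was -0.14 and no longer met the criterion, at an adjusted p of 0.0809. The choline comparison in always iron-sufficient females gave -0.08 (SE 0.054, adjusted p = 0.483), and the iron by choline interaction for Bace1 was -0.14 (SE 0.095, adjusted p = 0.710) and -0.06 without FIDch replicate 4. Female FID exceeded female IS (77.6 ± 3.5) by 0.11 on the log2 scale (SE 0.044, adjusted p = 0.394). Bace1 overlaps Rnf214 in the annotation, and shared reads were not checked there either.

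The direct test of the FIDch effect against IS in females minus males gave -0.26 for Bace1 (SE 0.11, unadjusted p = 0.0224, adjusted p = 0.275). The male effect was 0.15 and the female effect -0.11. Of all genes tested, 0.362% had an adjusted p under 0.05 and 13.9% an unadjusted p under 0.05 in this test. The corresponding shares were 1.28% and 15.5% for the ISch effect and 0.0396% and 8.34% for the FID effect.

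Adam10, the alpha-secretase, had its lowest mean in FIDch in both batches. In the males it was at 63.6, 70.1, 71.2 and 67.4 CPM in IS, 80.7, 73.3, 67.6 and 74.4 in ISch, 69.4, 76.0, 77.9 and 77.8 in FID and 62.4, 68.1, 72.6 and 65.1 among FIDch rats. The means of the groups with a single treatment, ISch and FID, were therefore above those of IS and FIDch, with libraries that overlapped. The iron by choline interaction was -0.29 (SE 0.096, 95% interval -0.49 to -0.09), with an unadjusted p of 0.0071 and an adjusted p of 0.205 by edgeR. It was negative in all 21 alternatives, between -0.34 and -0.25. Among all genes in the male interaction, 15.4% had an unadjusted p under 0.05 and 0.00699% an adjusted p under 0.05.

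In the females Adam10 was at 73.1 ± 3.48 for IS, 69.6 ± 2.79 for ISch, 73.9 ± 5.01 for FID and 66.7 ± 4.02 for FIDch. FIDch was lower than FID by a log2 fold change of -0.15 (SE 0.065, adjusted p = 0.242), and in the males by -0.18 (SE 0.068, adjusted p = 0.209). The female interaction was -0.08 (SE 0.080, adjusted p = 0.828), and in that test 9.18% of genes had an unadjusted p under 0.05 and 0.00668% an adjusted one. The ISch effect on Adam10 was 0.12 in the males and -0.07 in the females, a difference of -0.20 (SE 0.085, adjusted p = 0.257).

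Psen2, one of the presenilins, had the widest intervals. Its male means were 20.2 ± 3.47 for IS, 22.1 ± 2.32 for ISch, 19.8 ± 0.748 for FID and 22.1 ± 2.05 for FIDch, and its female means 21.5 ± 1.45, 20.7 ± 1.58, 21.8 ± 2.24 and 22.6 ± 2.04. The groups of each pairwise comparison overlapped. The 95% interval for male ISch against IS ran from -0.15 to 0.40 on the log2 scale. A change as large as the criterion could thus not be told from none. In the deeper female batch the interval for FIDch against FID, -0.14 to 0.25, had the same limit.

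Apoe had a wide spread between rats. Its log2 SD over the 16 male libraries was 0.143, against a median of 0.0865 for genes of like level. In the males Apoe was at 2427, 1987, 1799 and 2007 CPM in IS and at 1964, 1814, 1801 and 1525 in FID. Male ISch was at 1954 ± 122 and FIDch at 1975 ± 108. The ranges of IS and FID overlapped, and the highest IS library and the lowest FID library, replicate 1 and replicate 4, lay apart from the others of their groups.

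Apoe was lower in male FID than in male IS by a log2 fold change of -0.22 (SE 0.093, 95% interval -0.42 to -0.01), with an unadjusted p of 0.0377 and an adjusted p of 0.786 by edgeR. The exact permutation test gave a 2-sided p of 0.114. The change was -0.13 without IS replicate 1 and -0.14 without FID replicate 4, and the criterion was missed in both and also without IS replicate 4, FID replicate 2 or FID replicate 3. FID replicate 4 was the library with the high choroid plexus sum. The sum of 6 astrocyte markers was 4010 to 4403 CPM in male IS and 3828 to 4122 in male FID, and the sum of 6 microglial markers was 192 to 207 in IS and 170 to 215 in FID. Their part in the Apoe difference was not tested.

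In the females Apoe was at 2206.7 ± 104.6 for IS, 2142.6 ± 142 for ISch, 2254.4 ± 245 for FID and 2169.2 ± 228 for FIDch, with all 4 groups overlapping. The FID effect in females minus males was 0.23 (SE 0.12, adjusted p = 0.632), so the difference between the batches was not shown.

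Mean Mapt was above the matching group without choline in the male choline groups and below it in the female ones, and none of these differences was called. In the males it was at 647.1, 701.5, 721.5 and 691.5 in IS, 815.6, 837.8, 694.1 and 718.9 in ISch, 688.4, 623.2, 699.0 and 724.2 in FID and 715.7, 824.6, 690.8 and 724.8 among FIDch rats. The 2 highest male ISch libraries, replicates 1 and 2, exceeded every IS library, and the other 2 did not. These libraries and FIDch replicate 2 (824.6) had the highest male Mapt values and the column names of the other form. Whether this bears on the male Mapt values was not tested. ISch against IS gave a log2 fold change of 0.15 (SE 0.066, unadjusted p = 0.0384, adjusted p = 0.464), below the criterion in size.

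In the females Mapt was at 814.9, 813.3, 777.0 and 786.6 in IS, 760.6, 767.0, 767.7 and 776.0 in ISch, 784.3, 809.1, 784.3 and 800.3 in FID and 754.5, 762.7, 765.9 and 661.9 among FIDch rats. Both female choline groups lay below their own no-choline group without overlap. The log2 fold changes were -0.06 for ISch against IS (SE 0.034, adjusted p = 0.425) and -0.11 for FIDch against FID (SE 0.051, adjusted p = 0.273). The second was -0.06 without FIDch replicate 4. The ISch effect in females minus males was -0.21 (SE 0.076, unadjusted p = 0.0116, adjusted p = 0.184), and the FIDch effect differed by -0.21 (SE 0.083, unadjusted p = 0.0216, adjusted p = 0.271). Mapt overlaps 3 long non-coding RNA genes in the annotation, and App overlaps 1.

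**Figure D3:**
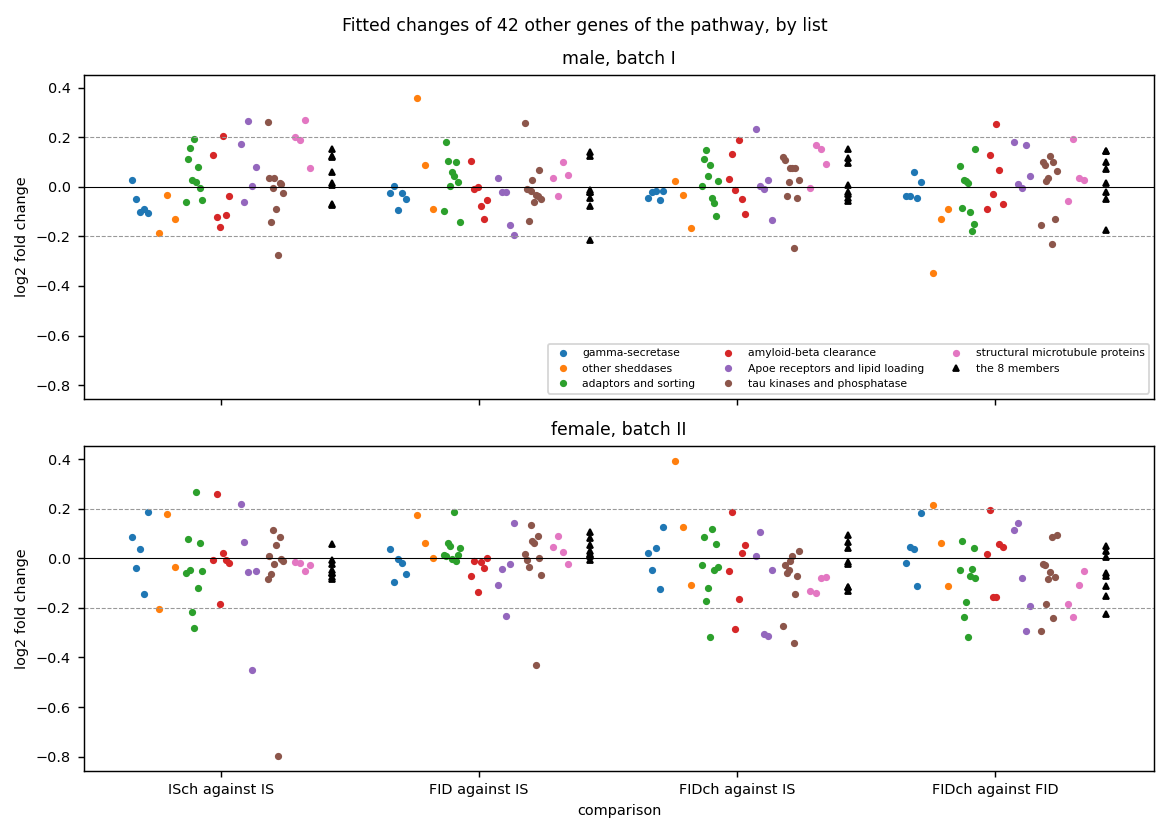
Fitted log2 fold changes (vertical axis) of 42 other genes of the pathway in the 4 pairwise comparisons (horizontal axis), coloured by list, with the 8 members as black triangles, males above and females below; each point is a gene and dashed lines mark 0.2 in either direction. Medians lie near 0 in every comparison, and the lowest female points reach -0.80 for ISch against IS.

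A further 42 genes of the same biology were examined, covering the rest of gamma-secretase, other sheddases, adaptors and sorting receptors, amyloid-beta clearance, Apoe receptors and lipid loading, tau kinases and phosphatase, and structural microtubule proteins. All 42 were tested in each comparison. In the males 0 of them had an adjusted p under 0.05 by edgeR's quasi-likelihood test in the 4 pairwise comparisons, while 5, 1, 2 and 6 had an unadjusted p under 0.05, and DESeq2 also called 0. At the criterion 1 was higher and 1 lower for ISch against IS, 0 for FID against IS, 1 higher for FIDch against IS and 0 for FIDch against FID. The list medians ran from -0.01 to 0.02, where the median of all genes tested ran from -0.01 to 0.01. In the females 2 genes fell for ISch against IS and 1 for FIDch against FID after adjustment. At the criterion 1 was higher and 4 were lower for ISch against IS, 1 was lower for FID against IS, 4 were lower for FIDch against IS and 5 were lower for FIDch against FID, counts near the background shares given above. The list medians in these 4 female comparisons were -0.02, 0.00107, -0.05 and -0.05. None of the 5 gamma-secretase genes and none of the 3 other sheddases met the criterion in any pairwise comparison.

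Among the male calls, Map1b, a microtubule-associated protein of growing axons, was at 1691 to 2286 in IS and 2098 to 2698 in ISch, a log2 fold change of 0.27 (SE 0.093, adjusted p = 0.389). Ppp2ca, the catalytic subunit of a phosphatase that acts on tau, changed by -0.28 in the same comparison (SE 0.11, adjusted p = 0.446). The groups of both genes overlapped. The highest male Map1b values were in ISch replicate 1 (2698), ISch replicate 2 (2479) and FIDch replicate 2 (2704). These are the libraries with the other form of column name. Map1b missed the criterion without IS replicate 1 (0.1999) or ISch replicate 1 (0.1990). Ppp2ca missed it without IS replicate 2 or 3 or ISch replicate 1 or 2. Its log2 fold changes were -0.36 to -0.18 over the 8 libraries left out. The female Ppp2ca levels spread widely within groups, at 43.7 to 73.2 in IS, 25.5 to 56.8 in ISch, 28.2 to 65.3 in FID and 30.5 to 61.7 in FIDch.

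Sort1 encodes sortilin, a sorting receptor of neurons that also takes up Apoe. In the females it was at 1260, 1288, 1107 and 1276 CPM in IS, 1011, 990, 1059 and 1003 in ISch, 1212, 1271, 1197 and 1244 in FID and 1034, 1040, 1032 and 850 among FIDch rats. Every female library with choline lay below every female library without it. Sort1 fell in ISch against IS by 0.28 on the log2 scale (SE 0.051, adjusted p = 0.0187) and in FIDch against FID by 0.32 (SE 0.064, adjusted p = 0.0301). FIDch against IS gave -0.32 (SE 0.073, adjusted p = 0.0904), or -0.26 without FIDch replicate 4 (adjusted p = 0.0334), and FID against IS gave -0.0023 (95% interval -0.11 to 0.10). Without FIDch replicate 4 the change against FID was -0.25 with an adjusted p of 0.00164. The adjusted p for ISch against IS passed 0.05 without IS replicate 1, 2 or 4 or ISch replicate 2 or 4, at most 0.0661, with log2 fold changes of -0.33 to -0.26 over the 8 libraries left out. For FIDch against FID it passed 0.05 without any 1 FID library or without FIDch replicate 1, at most 0.104, with log2 fold changes of -0.35 to -0.25.

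In the males Sort1 was at 837.9, 983.6, 959.1 and 953.2 in IS and at 1157, 1120, 984.4 and 1009 in ISch, barely without overlap and in the other direction, at a log2 fold change of 0.19 (SE 0.067, unadjusted p = 0.0122, adjusted p = 0.384). ISch replicates 1 and 2, and FIDch replicate 2 (1161), had the highest male Sort1 values and the column names of the other form. The ISch effect in females minus males was -0.48 (SE 0.090, adjusted p = 0.0128), and it stayed under 0.05 after adjustment in 20 of 21 alternatives.

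**Figure D4:**
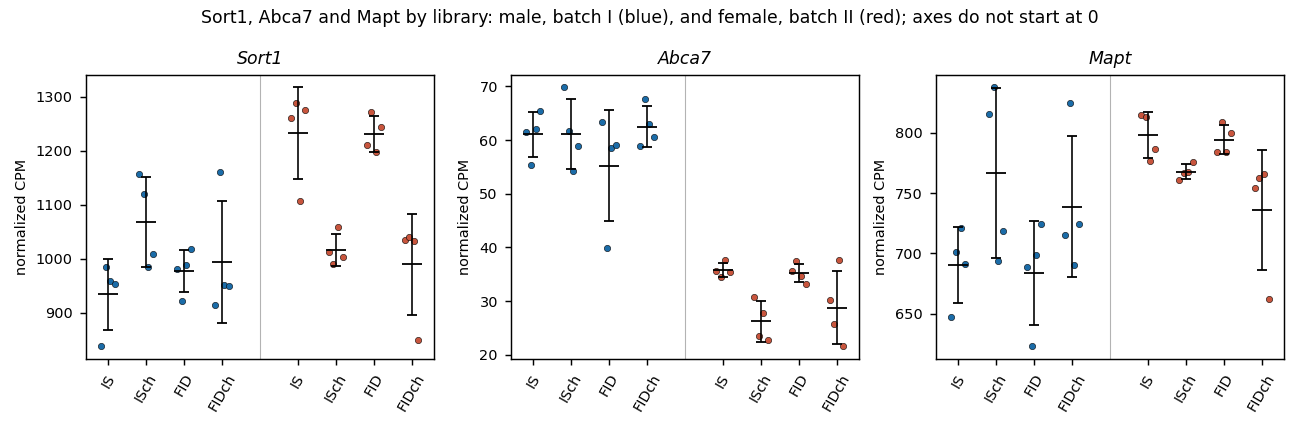
Normalized CPM (vertical axes, not starting at 0) of Sort1, Abca7 and Mapt in each library, males (batch I) in blue and females (batch II) in red, with the mean ± SD of 4 rats per group along the horizontal axis. The female ISch and FIDch libraries of Sort1 (850 to 1059) lie below the female IS and FID libraries (1107 to 1288).

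Abca7, a lipid transporter of the same family as Abca1, was at 35.5, 34.5, 37.6 and 35.4 in female IS and at 30.8, 23.5, 27.8 and 22.7 in female ISch. It fell by 0.45 on the log2 scale (SE 0.089, adjusted p = 0.0260). The adjusted p stayed under 0.05 without ISch replicate 1 or 3 and was at most 0.0758 without any 1 of the other 6 libraries, at log2 fold changes of -0.54 to -0.38. Female FIDch was at 30.2, 25.7, 37.6 and 21.6 and FID at 33.2 to 37.4, which overlapped, and FIDch against FID gave -0.29 (SE 0.14, adjusted p = 0.281). In the males IS was at 61.1 ± 4.16 and ISch at 61.2 ± 6.50. The ISch effect in females minus males was -0.46 (SE 0.13, adjusted p = 0.0906).

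The other female genes named met the criterion without an adjusted p under 0.05 by edgeR's quasi-likelihood test. DESeq2 gave an adjusted p under 0.05 for Sorcs1 in ISch against IS and for Abca1 and Ece1 in FIDch against IS, and the likelihood ratio test did so for the last 2. Sorcs1, a receptor of the sortilin family, was higher in ISch than in IS by 0.27 (SE 0.070, adjusted p = 0.0768), without overlap. Abca1, which loads lipid on Apoe, was lower in FID than in IS by a log2 fold change of -0.23 (SE 0.10, adjusted p = 0.416), which met the criterion only without IS replicate 3 or FID replicate 3 when single libraries were left out (-0.34 to -0.19). It was lower in FIDch than in IS by a log2 fold change of -0.30 (SE 0.081, adjusted p = 0.146). Ece1, an amyloid-beta degrading enzyme, was lower in FIDch than in IS at -0.29 (SE 0.077, adjusted p = 0.147), or -0.21 without FIDch replicate 4 (adjusted p = 0.0395). Ttbk1 and Gsk3b, kinases of tau, were lower in FIDch than in FID at -0.24 (SE 0.084, adjusted p = 0.164) and -0.29 (SE 0.11, adjusted p = 0.212). Both fell outside the criterion without FIDch replicate 4, whose Gsk3b level was 47.9 against 68.5 to 73.4 in the other 3. Ttbk1 also missed it without FID replicate 4, and Gsk3b without FID replicate 1, 2 or 4.

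Some marker sums differed between groups with and without choline, and others overlapped. In the females the 6 microglial markers summed to 213 to 223 CPM in IS, 181 to 207 in ISch, 207 to 226 in FID and 190 to 197 in FIDch. Both choline groups thus lay below the groups without choline, ISch barely below FID (at most 206.6 against at least 206.8). Taken singly, 0 of the 6 microglial markers had an adjusted p under 0.05 in any pairwise comparison by edgeR's quasi-likelihood test. The 5 neuronal markers of the females summed to 5803 to 5985 in IS, 5323 to 5529 in ISch, 5975 to 6200 in FID and 5335 to 5939 in FIDch. In the males the microglial sums were 192 to 207 in IS and 186 to 200 in ISch, and the neuronal sums 5632 to 6344 and 5844 to 6021. The male neuronal sums were 5730 to 6292 in FID and 5374 to 5606 in FIDch, which lay below both FID and IS, and the male microglial sums were 170 to 215 and 181 to 207. Single markers with an adjusted p under 0.05 in female ISch against IS were Nefl of the 5 neuronal markers (log2 fold change -0.17), Aldh1l1 of the 6 astrocyte markers (0.36) and Prox1 of the 5 hippocampal ones (0.39). In FIDch against FID they were Aldh1l1 (0.36), Aqp4 (0.30) and Prox1 (0.39). Of all genes tested, 2.54% and 2.28% had an adjusted p under 0.05 in these 2 comparisons. The female astrocyte sums overlapped, at 4247 to 4388 in IS, 4214 to 4773 in ISch, 3992 to 4315 in FID and 4182 to 4573 in FIDch. The part of these markers in the Sort1, Abca7, Bace1 and Mapt values was not tested.

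The genes whose pattern over the 16 libraries of a batch was nearest to App and Mapt were found by the root mean square difference of centred log2 values. Nearest to App were Oxa1l (0.0362), Map2k1 (0.0458) and Cars (0.0460) in the males and Atxn2 (0.0288), Galnt2 (0.0340) and Ap2a1 (0.0356) in the females, against medians over all genes of 0.173 and 0.149. Nearest to Mapt were Pomt2 (0.0532), Mprip (0.0539) and Sort1 (0.0561) in the males and Atp6v0e2 (0.0254), Tm9sf3 (0.0316) and Mgrn1 (0.0338) in the females, against medians of 0.199 and 0.157. No gene was nearest in both batches, and the measure favours genes that vary little.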

How the data were processed

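The authors trimmed and aligned the reads with Trimmomatic and HISAT2 to the Rnor_6.0 rat genome and counted them per gene with featureCounts. The deposited values are these raw counts, 1 table for 16 male and 1 for 16 female libraries, and the strand setting is not given in the sources used here. Groups came from the sample labels, where the study's FID and FIDch are written ID and IDch. Library totals had a median of 8007907 in males and 21747536.5 in females.

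Genes passing edgeR's filterByExpr were tested with edgeR 4.0.16 (R 4.3.3) by the quasi-likelihood test with TMM factors and Benjamini-Hochberg adjustment over all genes tested, each pair of groups fitted separately as in the study. The study's criterion (absolute log2 fold change over 0.2, unadjusted p under 0.05) was applied beside it. CPM used TMM factors over the 16 libraries of a batch. Intervals are 95% intervals from the fitted standard error. The p-values measure spread between the 4 rats of a group, which the labels give as biological replicates. They treat these rats as independent, which could not be checked because the labels give no litter. All members are named. Of 42 other pathway genes, at most 3 of smallest p in a comparison are named if called, except for 1 result that is not reported here, and for App and Mapt the 3 nearest genes per batch.

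The members and lists were chosen with earlier results of these data known. Alternatives were DESeq2 1.42.0, RLE size factors, the likelihood ratio test, no low-count filter, a replicate block, all 4 groups of a batch in 1 fit, no limit on the fold change, CPM of the deposited total, and each library left out in turn. The code was tested on simulated data. Of 48 pairs of replicates none was a duplicate library (chi-square per gene 2.02 to 25.2). Gene overlaps come from RefSeq's GRCr8 annotation, used for neighbours only.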

Additional observations from a re-analysis of the deposited data

Results flagged for a closer look

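In 3 of the 64 combinations of a gene and a group, 1 library lay far from the other 3, where chance alone sets about 1 in 20 such combinations apart. App in female ISch replicate 3 was at 1760.18 CPM, below the next lowest at 1875. Aplp1 in male FID replicate 2 was at 1393.91 CPM, above the next at 1261. Mapt in female FIDch replicate 4 was at 661.851 CPM, below the next lowest at 754.5. That last library also had the largest deviation of the female libraries over all genes tested.

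Of the 8 members, the effect of a diet against IS differed between the female and the male batch at an unadjusted p under 0.05 for 2 in ISch, 0 in FID and 2 in FIDch, where 15.5%, 8.34% and 13.9% of all genes tested did. The ISch effect, females minus males, was -0.200213 on the log2 scale for Adam10 (adjusted p = 0.257) and -0.213942 for Mapt (adjusted p = 0.184). The FIDch effect differed by -0.263971 for Bace1 (adjusted p = 0.275) and by -0.208059 for Mapt (adjusted p = 0.271). None passed the adjustment over all genes, by edgeR's quasi-likelihood test. Without female FIDch replicate 4 the 2 FIDch differences were -0.19 and -0.17. Without male IS replicate 1, neither ISch difference met the limits of the study's criterion, nor did the FIDch difference of Mapt. In ISch these limits were met in 11 of 21 alternatives for Adam10 and 16 of 21 for Mapt. In FIDch they were met in 19 of 21 for Bace1 and 16 of 21 for Mapt. Sex and sequencing batch cannot be separated in these differences.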

How the results depend on the processing

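The count of members with an adjusted p under 0.05 was 0 in all 13 comparisons under each alternative. No called value of a gene reversed. Of 2016 values of single genes under an alternative, 32 lost and 11 gained a call, and 80 of the 1759 that stayed uncalled had the opposite sign. A call here was the criterion in the pairwise comparisons and an adjusted p under 0.05 in the interactions and batch differences. With no limit on the fold change the members called rose to 1 for male ISch, 1 for male FIDch and 1 for female FID, each against IS, to 1 for male FIDch against FID, to 2 for female FIDch against IS and to 3 for female FIDch against FID. With each library left out in turn, the members at the criterion numbered 0 to 1 for male FID against IS, 0 to 2 for male FIDch against FID and 0 to 1 for female FIDch against FID. The count for male FID against IS was 0 without IS replicate 1 or 4 or FID replicate 2, 3 or 4. For male FIDch against FID it was 1 without FID replicate 1 and 2 without FIDch replicate 3. For female FIDch against FID it was 0 without FIDch replicate 4. CPM of the deposited total moved 0 of 64 group means by more than their SD.

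Replicate numbers did not pair the samples: deviations of same-numbered libraries had a median correlation of -0.00786 in the males (-0.164 to 0.229) and -0.0051 in the females (-0.147 to 0.185). With the replicate block the members with an adjusted p under 0.05 stayed at 0. The block lowered the genes with an adjusted p under 0.05 from 179 to 4 for male FIDch against FID and from 368 to 81 for female ISch against IS. Under it the adjusted p of Sort1 was 0.103 for female ISch against IS and 0.0525 for FIDch against FID, that of Abca7 0.0661, and that of the Sort1 difference between batches 0.0960. In 1 fit of the 4 female groups Abca7 had an adjusted p of 0.0725. Among all genes, edgeR's quasi-likelihood test and DESeq2 called 29 and 70 genes at an adjusted p under 0.05 for male ISch against IS, 0 and 2 for male FID against IS, 18 and 47 for male FIDch against IS, 179 and 280 for male FIDch against FID, and 368 and 678, 28 and 193, 133 and 392, and 334 and 816 in the same comparisons of the females. In the pairwise comparisons the upper bound of the 95% interval of Psen2, the member with the fewest counts, was at most 0.40 in the males and 0.25 in the females. Its lower bound reached -0.31 in male FID against IS and -0.23 in female ISch against IS.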
